A study of Mus musculus with 14 samples.

Results

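The second of 2 age experiments on mouse liver sinusoidal endothelial cells (LSECs) comprised 8 libraries, 4 from aged and 4 from young mice, out of 14 libraries in the series. Its members were the libraries titled with replicate numbers 2.1 to 2.4, and they were compared within this experiment only. All mice were wild type females of the C57BL/6J strain. The aged mice were 10 to 11 months old and the young mice 8 to 10 weeks old, and no group received a treatment. LSECs were sorted by flow cytometry as cells with dim CD45, high STAB2 and high CD146, and their RNA was read with Ion AmpliSeq, a panel that amplifies a short target in each of 23930 transcripts. Whether a library stands for 1 mouse is not in the labels, and the p-values here rest on differences among libraries that may be partly technical. An age of 10 to 11 months is middle age for this strain.

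LSECs line the capillaries of the liver lobule. They carry open pores called fenestrae, lack an organised basement membrane, and clear waste molecules from blood through scavenger receptors such as STAB2 and MRC1. They also release signals to neighbouring hepatocytes: BMP6 from LSECs raises hepcidin, the hormone that limits iron uptake, and WNT2 and RSPO3 from LSECs near the central vein pattern hepatocyte metabolism. Loss of fenestrae and gain of basement membrane collagen, known as capillarisation, accompany fibrosis and old age. The series title concerns iron signalling to Bmp6 through p38 and ETS1, and the age groups serve to find LSEC transcripts whose level differs with age.

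Libraries held 6710403 (young 2.2) to 13977361 (aged 2.3) gene reads, with at least 10 reads on 12637 to 14363 targets. The genes used for sorting matched the label: Stab2 lay between 1889 and 2208 CPM (counts scaled to a library total of 1e+06 gene reads) in all 8 libraries, Mcam (CD146) between 308.2 and 797.4 CPM, and Ptprc (CD45) between 1.29 and 74.8 CPM. The mean of Stab2 was 2057 ± 83.4 CPM among young and 1997 ± 145.6 CPM among aged libraries (SD, n = 4 per age, exact two-sided permutation p = 0.486, where 0.0286 is the smallest p this design allows). The libraries differed in reads on 1325 targets of taste, vomeronasal and olfactory receptors, which belong to sensory cells and are called receptor targets here. These took 2.93% of gene reads in young 2.2 and 2.81% in aged 2.4 but 0.146 to 0.961% in the other 6. The log2 share did not separate the ages (exact permutation p = 0.6). The first principal component, computed without receptor targets, held 59.9% of the variance and followed that share (Pearson r = 0.987, permutation p = 7.44e-05, adjusted over 2 relations 0.000149; Spearman rho = 0.976, permutation p = 0.000397, adjusted 0.000794; r = 0.980 without the 2 libraries farthest from the median share, n = 8). Its relation to gene reads was weaker (r = -0.41, permutation p = 0.313, adjusted 0.313; rho = -0.55, permutation p = 0.171, adjusted 0.171; r = -0.58 without the 2 farthest). The second component held 17.0% and set replicates 1 and 2 of both ages apart from replicates 3 and 4. The same split is visible in the leading number of the deposited library names, whose meaning is not given in the sources used here.

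**Figure D1:**
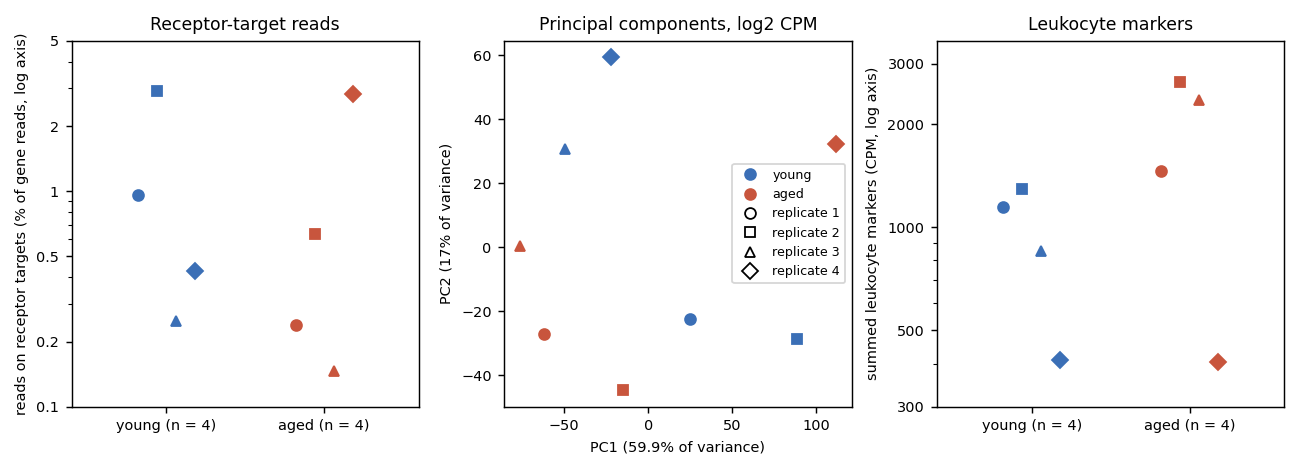
Left, reads on receptor targets in % of gene reads (log axis); middle, the first 2 principal components of log2 CPM without receptor targets; right, summed CPM of leukocyte markers (log axis), with 1 point per library, coloured by age and shaped by replicate. Young 2.2 and aged 2.4 lie highest on the left and farthest right in the middle panel, at 88.3 and 111.7 on the first component, and replicates 3 and 4 of both ages lie above replicates 1 and 2 on the second.

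No gene passed a Benjamini-Hochberg adjusted p under 0.05 in the comparison of 4 aged with 4 young libraries by edgeR's quasi-likelihood test, so 0% of 13828 targets were called higher and 0% lower. The smallest adjusted p was 0.237, and 345 targets had an unadjusted p under 0.05 where 691 would be expected by chance alone. Of these, 239 were higher in aged libraries (1.73% of targets) and 106 lower (0.767%). Of the targets tested, 51.2% had a log2 fold change (aged over young) above 0 and 48.8% below 0, and their median was 0.01. The 4 aged libraries lay wholly above the 4 young ones for 175 targets, or 1.27%, and wholly below them for 96, or 0.694%. limma-voom also called 0 genes, while DESeq2 called 35, of which 20 were higher and 15 lower in aged libraries, and aged and young libraries did not overlap for any of the 35. With the log2 share of receptor reads as a term in the edgeR fit, 6 genes were called higher (0.0434% of targets) and 1 lower (0.00723%). The 6 were Col4a4, Dkk3, Cdh19, Tmem63c, Col4a3 and Ptgis, and the lower one was Steap2. Without young 2.2 and aged 2.4, 0 of 13671 targets were called, and 1227 had an unadjusted p under 0.05.

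Collagen IV genes of the basement membrane differed in opposite directions. Col4a3 and Col4a4, which encode the alpha 3 and alpha 4 chains of collagen IV, a network best known from the glomerulus, were near 1 CPM in young libraries and several-fold higher in aged ones. Col4a4 read 1.43, 0.862, 1.28 and 0.735 CPM in young 2.1 to 2.4, and 10.8, 10.5, 8.40 and 11.8 CPM in aged 2.1 to 2.4. Every aged library lay above every young one, and the lowest aged value was several times the highest young value. The log2 fold change was 3.25 ± 0.40 (SE; 9.49-fold; edgeR adjusted p = 0.237), and Col4a4 rose in the fit with the receptor term (3.25 ± 0.32, adjusted p = 0.0200). In the fit of all 14 libraries with 4 means it passed as well (3.24, adjusted p = 0.000819).

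Col4a3 read 1.93, 1.15, 1.02 and 1.16 CPM in the young and 10.2, 8.94, 7.00 and 8.5 CPM in the aged libraries, again with no overlap. Its log2 fold change was 2.70 ± 0.39 (adjusted p = 0.260), and it rose in the fit with the receptor term (2.71 ± 0.33, adjusted p = 0.0346). Col4a3 and Col4a4 are neighbours on chromosome 1, with 0 protein-coding genes between them in RefSeq's GRCm38.p6 annotation. Col4a5, the partner chain of this network, was not tested: it had 18 reads over all 8 libraries, and Col4a6 had 36.

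The chains of the ubiquitous collagen IV network pointed the other way. Col4a1, its alpha 1 chain, read 1447, 1129, 1629 and 1878 CPM in the young and 1059, 693.9, 1018 and 839.6 CPM in the aged libraries. Col4a2, its alpha 2 chain and the neighbour of Col4a1 on chromosome 8, read 427.7, 325.8, 414.9 and 426.4 CPM in the young and 315.9, 223.6, 213.1 and 144.3 CPM in the aged libraries. Neither gene overlapped between the ages. The log2 fold changes were -0.75 ± 0.21 for Col4a1 and -0.83 ± 0.23 for Col4a2, with unadjusted p of 0.00574 and 0.00570 and an adjusted p of 1 for each.

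Of 26 basement membrane genes listed, 19 had enough reads to be tested, 6 were higher and 13 lower, and the median log2 fold change was -0.22 against 0.01 over all targets. At an unadjusted p under 0.05, 3 were higher and 3 lower, beside 1.73 and 0.767% of all targets. Sparc, a matrix protein that binds collagen IV, did not overlap either (1931 to 2580 CPM in young, 1439 to 1917 in aged; log2 fold change -0.39 ± 0.17). Lama4, a laminin chain of vessel walls, was higher by 0.38 ± 0.14 on the log2 scale, with 1 young library, at 305.7 CPM, inside the aged range. In all, 2 of the 19 lay wholly higher and 3 wholly lower in aged libraries, beside 1.27 and 0.694% of all targets. All lists here were drawn up with earlier results of these data known, so such shares are no test of a list.

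**Figure D2:**
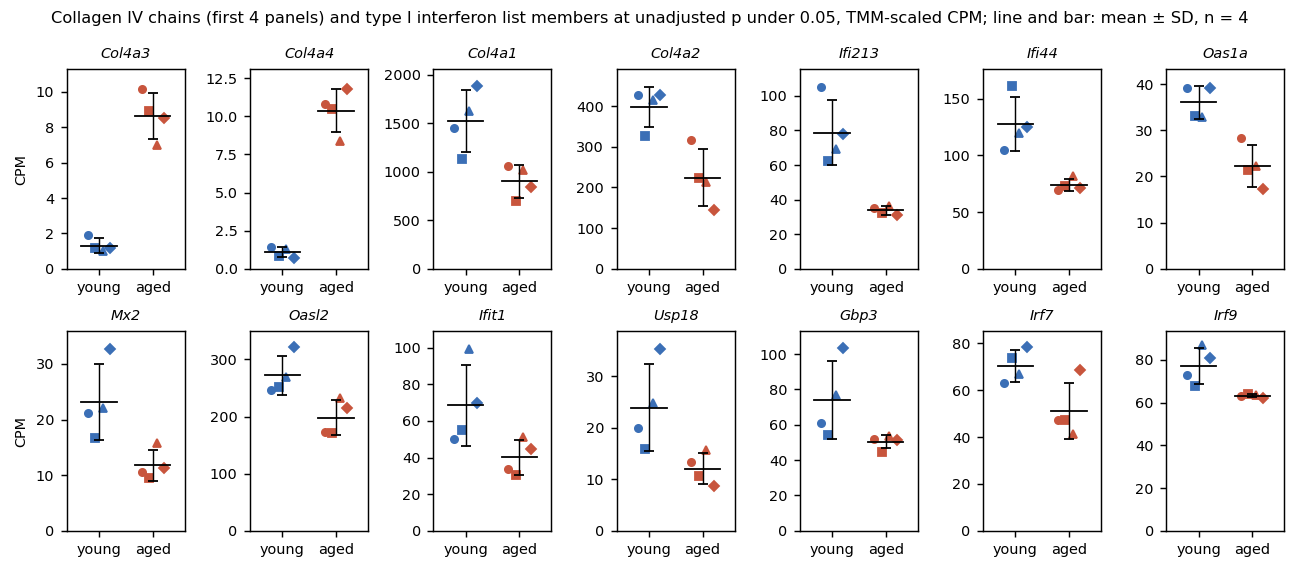
TMM-scaled CPM of the 4 tested collagen IV chains and of 10 type I interferon genes in each of 8 libraries, with mean ± SD (n = 4 per age); point shapes stand for replicates 1 to 4. Aged points lie above young points for Col4a3 and Col4a4, and below them for Col4a1 and Col4a2; Ifit1 and Irf7 are the interferon genes whose ages overlap.

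Interferon-stimulated genes, which cells switch on after type I interferon as a defence against viruses, were lower in aged libraries nearly throughout the list. Of 32 genes listed, 26 were tested, 24 were lower and 2 higher, and the median log2 fold change was -0.35. At an unadjusted p under 0.05, 10 were lower and 0 higher, beside 0.767 and 1.73% of all targets. The aged libraries lay wholly below the young ones for 8 genes (Ifi213, Ifi44, Oas1a, Mx2, Oasl2, Usp18, Gbp3 and Irf9), where 0.694% of all targets did so. This list was drawn up with earlier results of these data known, so the shares describe it and do not test it. None of the 26 passed an adjusted p under 0.05 by edgeR in the 8 libraries or by limma-voom, and DESeq2 called Ifi213 and Ifi44.

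Ifi213, a member of the PYHIN family of DNA sensors, read 105.1, 62.2, 69.5 and 77.8 CPM in the young and 35.4, 32.3, 36.4 and 31.3 CPM in the aged libraries. The aged values were close to each other and the young values spread more widely. The log2 fold change was -1.22 ± 0.17 (adjusted p = 0.260), and the fit of all 14 libraries gave an adjusted p of 0.0474. Ifi213 has close relatives in the same gene cluster, and how reads shared between such copies were counted is not given in the sources used here, which applies to Oas1a as well.

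Ifi44, an interferon-induced cytoplasmic protein, read 104.8, 161.1, 120.0 and 125.1 CPM in the young and 69.1, 73.2, 81.9 and 71.1 CPM in the aged libraries. Its log2 fold change was -0.79 ± 0.14 (adjusted p = 0.648). Oas1a, which makes the 2-5A second messenger against viral RNA, lay between 32.8 and 39.2 CPM in young and between 17.3 and 28.3 CPM in aged libraries (log2 fold change -0.69 ± 0.19). The remaining members at an unadjusted p under 0.05 were Mx2 (-0.97), Oasl2 (-0.46), Ifit1 (-0.77), Usp18 (-0.99), Gbp3 (-0.55), Irf7 (-0.47) and Irf9 (-0.29). Among them Irf9, an interferon regulatory factor, had the narrowest aged range, from 62.2 to 64.2 CPM, against 67.9 to 86.8 CPM in young libraries. The list's median was -0.29 to -0.47 when each library was left out in turn, and -0.50 without young 2.2 and aged 2.4.

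Many interferon-stimulated genes are known to carry an interferon-stimulated response element upstream, and the promoters were searched for its core letters. RefSeq's promoter table (GRCm38.p6) held 23 of the 32 listed genes, and the motif GAAANNGAAA, searched on both strands, occurred in the 250 bases before the start of 10 of them. Of all 32851 promoters in the table, 2.98% held it in that window. That share counts promoters, whereas a listed gene was counted if any of its promoters held the motif, so the units differ. Among all tested members of the list, 19 had a promoter there and 8 of these held the motif. Of the 10 members lower at an unadjusted p under 0.05, 8 had a promoter there and 4 held the motif. These 4 are printed 5′ to 3′ in the direction of the gene, ending at the base before its start, with the motif or its reverse complement in capitals: Gbp3 at chr3:142559794-142560043 (plus strand), Ifi213 at chr1:173599273-173599522 (minus), Ifit1 at chr19:34640639-34640888 (plus) and Oas1a at chr5:120907526-120907775 (minus).
Gbp3: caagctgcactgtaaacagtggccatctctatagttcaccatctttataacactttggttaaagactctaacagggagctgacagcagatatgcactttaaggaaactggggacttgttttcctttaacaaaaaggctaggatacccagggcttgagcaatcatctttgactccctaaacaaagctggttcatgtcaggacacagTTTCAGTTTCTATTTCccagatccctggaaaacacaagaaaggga
Ifi213: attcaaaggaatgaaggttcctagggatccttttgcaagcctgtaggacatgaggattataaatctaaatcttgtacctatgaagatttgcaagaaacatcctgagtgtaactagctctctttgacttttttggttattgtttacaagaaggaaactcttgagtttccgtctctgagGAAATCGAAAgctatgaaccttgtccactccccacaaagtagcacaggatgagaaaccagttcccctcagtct
Ifit1: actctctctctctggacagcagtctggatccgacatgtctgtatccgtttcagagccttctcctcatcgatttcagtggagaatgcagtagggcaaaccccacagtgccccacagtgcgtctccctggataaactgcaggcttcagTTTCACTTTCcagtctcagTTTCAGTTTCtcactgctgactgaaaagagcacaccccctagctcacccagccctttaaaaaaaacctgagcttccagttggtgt
Oas1a: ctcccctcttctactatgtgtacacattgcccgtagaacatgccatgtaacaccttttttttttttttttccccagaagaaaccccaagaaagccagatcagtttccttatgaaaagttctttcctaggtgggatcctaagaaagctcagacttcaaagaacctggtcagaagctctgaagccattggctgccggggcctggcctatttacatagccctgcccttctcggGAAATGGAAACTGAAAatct
Matches overlap each other in Gbp3 and in Oas1a, stand apart in Ifit1, and occur once in Ifi213. Oas1a carries them closest to the gene, beginning 20 and 14 bases before its start. A match describes these letters only, and binding was not measured here.

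The remaining genes that led the comparison were the 10 higher and 10 lower with the smallest p among genes without overlap whose mean reached 5 CPM. Besides Col4a4, the higher ones were Dkk3, Tmem63c, Cdh19, Fuca2, AU021092, Cyp4v3, Gna14, Clec1b and Map4. DESeq2 called 18 of the 20, all 10 higher ones and 8 of the lower ones. The 20 were picked by edgeR's p in the same libraries, so these calls are not separate evidence for them.

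Dkk3, a secreted glycoprotein of the Dickkopf family, read 15.5, 10.3, 19.2 and 11.2 CPM in the young and 65.8, 44.2, 62.4 and 42.8 CPM in the aged libraries. Its log2 fold change was 1.93 ± 0.26 (adjusted p = 0.237), and it rose in the fit with the receptor term (1.84 ± 0.19, adjusted p = 0.0200). Dkk3 was the exception among the genes that mark LSECs near the central vein. Of 13 pericentral genes tested, 12 were lower in aged libraries, and the median log2 fold change was -0.48. Ptgs1 (cyclooxygenase 1; 347.5 to 513.1 CPM in young, 254.3 to 368.8 in aged) and Fabp4, a fatty acid carrier (349.9 to 749.6 CPM in young, 181.9 to 383.6 in aged), had log2 fold changes of -0.53 ± 0.17 and -0.89 ± 0.29. Both overlapped between the ages, and the median was -0.21 with the leukocyte marker sum as a term. Among 10 periportal genes 6 were higher and 4 lower, with a median of 0.04.

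Tmem63c, of a family of mechanically gated ion channels, read 1.36, 0.862, 0.894 and 1.05 CPM in the young and 8.46, 9.45, 19.5 and 8.28 CPM in the aged libraries. Aged 2.3 stood far above the other aged libraries, which were themselves above all young ones. The log2 fold change was 3.43 ± 0.46 (adjusted p = 0.237), and Tmem63c rose in the fit with the receptor term (3.27 ± 0.36, adjusted p = 0.0200).

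Cdh19, a cadherin best known from Schwann cells, had 0, 0, 2 and 2 reads in the young libraries against 92, 57, 171 and 136 reads in the aged ones. In CPM the aged libraries ranged from 5.86 to 14.8, and no young library exceeded 0.255. Cdh19 rose in the fit with the receptor term (adjusted p = 0.0200), and no fold is given because of the near-empty young group.

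Ptgis, prostacyclin synthase, makes a vasodilator that also restrains platelets. It read 0.787, 0.431, 3.19 and 3.47 CPM in the young and 17.2, 17.2, 30.0 and 11.9 CPM in the aged libraries. Its log2 fold change was 3.27 ± 0.72 (adjusted p = 0.877), and it rose in the fit with the receptor term (3.20 ± 0.41, adjusted p = 0.0419). Other genes of vessel tone differed less: of 20 tested in the list of KLF2, nitric oxide and endothelin genes, 7 were higher and 13 lower, with a median of -0.27. Nos3, endothelial nitric oxide synthase, overlapped between the ages (94.1 to 115.3 CPM in young, 70.4 to 112.1 in aged). Edn1, endothelin 1, reached 40.0 CPM in young 2.4 but 2.43 to 3.59 CPM in the other young libraries, and its log2 fold change of -2.56 ± 1.05 was -0.50 without that library.

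Gna14, a G protein alpha subunit of the Gq family, read 11.4, 8.47, 11.5 and 2.42 CPM in the young and 44.0, 29.6, 41.5 and 42.1 CPM in the aged libraries (log2 fold change 2.22 ± 0.45). Clec1b, the podoplanin receptor CLEC-2, ranged from 520.6 to 647.2 CPM in young and from 789.4 to 1026 CPM in aged libraries, a difference of 0.68 ± 0.14 on the log2 scale. Cyp4v3, a fatty acid hydroxylase, ranged from 8.09 to 10.4 CPM in young and from 20.2 to 28.8 CPM in aged libraries (1.35 ± 0.25). Map4, a microtubule-associated protein, had a log2 fold change of 0.63 ± 0.13, and AU021092 one of 1.20 ± 0.21. These 5 genes had adjusted p-values of 0.580 to 0.763.

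**Figure D3:**
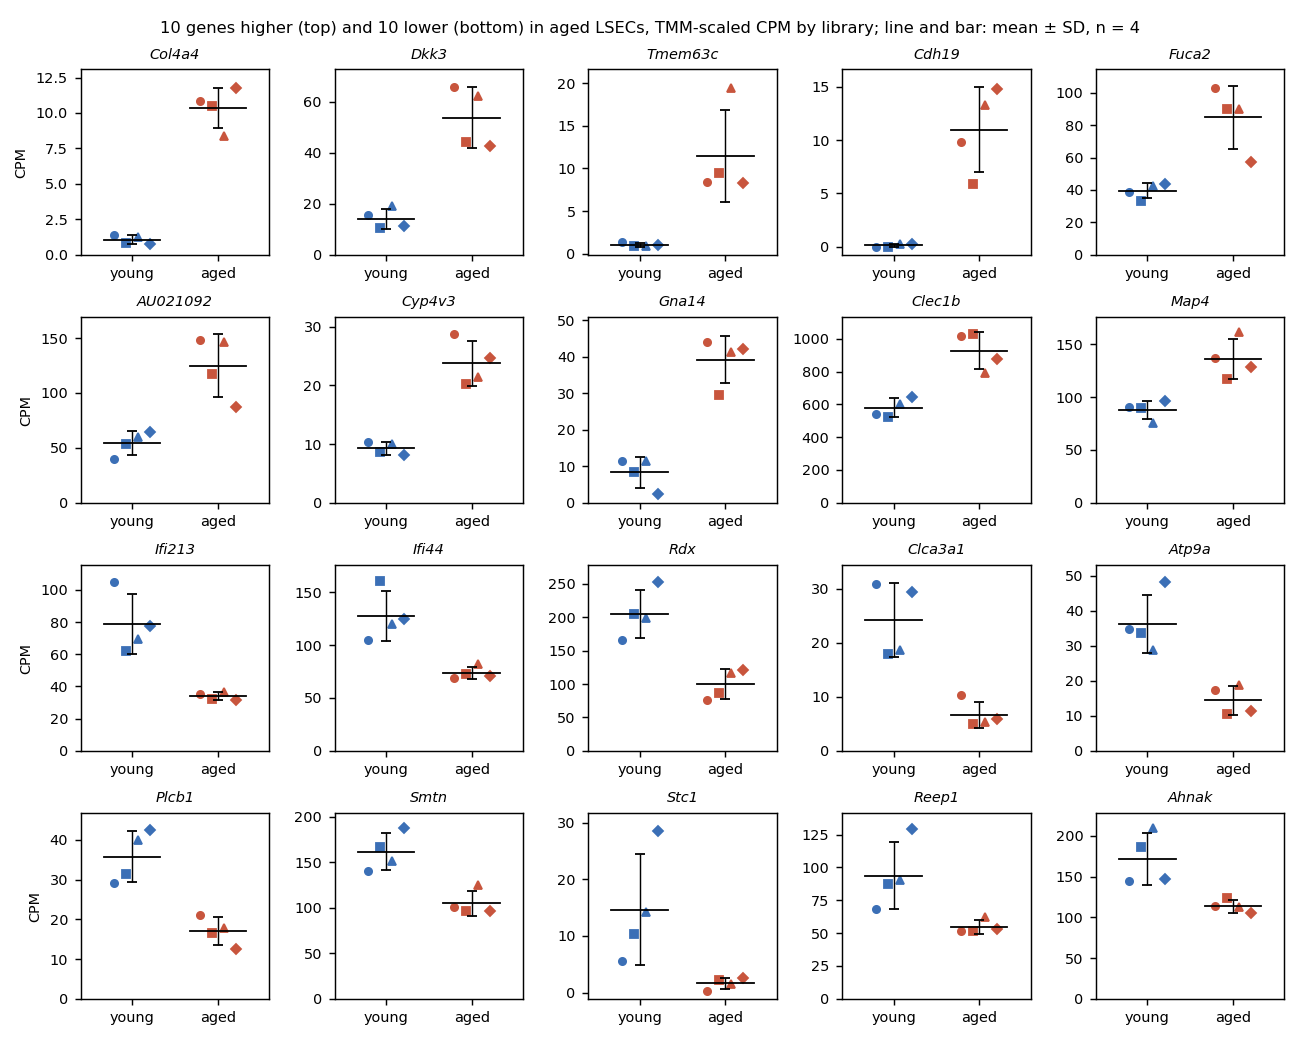
TMM-scaled CPM in each library for the 10 genes higher (upper rows) and 10 lower (lower rows) in aged LSECs by the naming rule, with mean ± SD (n = 4 per age); point shapes stand for replicates 1 to 4. Aged and young points do not overlap in any panel, which the rule required, and Tmem63c shows aged 2.3, at 19.5 CPM, apart from the other aged libraries.

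LSECs degrade what their scavenger receptors take in, so lysosomal hydrolases are abundant in them. All 32 listed lysosomal genes were tested, 25 were higher and 7 lower, and the median log2 fold change was 0.20. It was 0.29 within replicates 1 and 2 and -0.035 within replicates 3 and 4. At an unadjusted p under 0.05, 4 were higher and 0 lower, beside 1.73 and 0.767% of all targets. Fuca2, an alpha-fucosidase, read 38.7, 33.3, 42.5 and 43.9 CPM in the young and 102.6, 89.8, 90.1 and 57.2 CPM in the aged libraries, with aged 2.4 the lowest of the aged. Its log2 fold change was 1.10 ± 0.19 (adjusted p = 0.528). Gaa, the acid alpha-glucosidase, did not overlap either (88.1 to 120.2 CPM in young, 123.2 to 188.3 in aged; 0.53 ± 0.16), whereas Ctsz, cathepsin Z, overlapped (28.9 to 47.0 CPM in young, 45.8 to 55.7 in aged; 0.47 ± 0.16). The list's median was 0.09 with the receptor term, 0.10 with the leukocyte term and 0.11 without young 2.2. The summed list was lowest among aged libraries in aged 2.4, at 11370 CPM against 13990 to 14520 in the other 3.

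Of 20 actin and fenestra genes tested, 8 were higher and 12 lower, with a median of -0.07. In aged libraries 2 lay wholly lower, Rdx and Smtn, beside 0.694% of all targets. Both are among the leading lower genes, and the list was drawn up with earlier results known, so this share does not test it. Rdx, radixin, which ties actin filaments to the plasma membrane, read 165.9, 204.6, 198.2 and 253.2 CPM in the young and 75.6, 86.6, 116.8 and 120.6 CPM in the aged libraries, with a log2 fold change of -1.04 ± 0.19 (adjusted p = 0.661). Smtn, smoothelin, an actin-associated protein, ranged from 140.8 to 187.5 CPM in young and from 96.1 to 125.2 CPM in aged libraries (-0.62 ± 0.13). Plvap, a protein of endothelial diaphragms, had a log2 fold change of -0.72 ± 0.28 and overlapped (738.1 to 1478 CPM in young, 441.9 to 852.8 in aged).

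Steap2, a metal reductase of membranes, fell in the fit with the receptor term (log2 fold change -3.50 ± 0.45, adjusted p = 0.0419). It read 6.94, 3.30, 6.64 and 7.77 CPM in the young and 0.642, 0.925, 0.389 and 0.327 CPM in the aged libraries. Stc1, stanniocalcin 1, a secreted glycoprotein, read 5.65, 10.3, 14.2 and 28.5 CPM in the young and 0.321, 2.26, 1.48 and 2.51 CPM in the aged libraries. The young values of Stc1 spread widely, and the log2 fold change was -3.15 ± 0.74 (unadjusted p = 0.00238). Clca3a1, a secreted and membrane-bound protein of the chloride channel accessory family, ranged from 18.0 to 30.8 CPM in young and from 4.93 to 10.3 CPM in aged libraries (-1.87 ± 0.37), and it too has near-identical relatives. Atp9a, a lipid-flipping ATPase of endosomes, and Plcb1, a phospholipase C acting behind Gq, had log2 fold changes of -1.33 ± 0.27 and -1.06 ± 0.23. Reep1, which shapes the endoplasmic reticulum, and Ahnak, a giant scaffold protein, had -0.78 ± 0.19 and -0.59 ± 0.14. The 10 lower genes had a median of -1.05.

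The genes named by the series title were measured well in all libraries. Bmp6 read 345.3, 227.7, 473.0 and 190.8 CPM in the young and 476.2, 439.1, 526.9 and 534.5 CPM in the aged libraries. Young 2.3 lay inside the aged range, and the other 3 young libraries lay below it. The log2 fold change was 0.68 ± 0.27 (unadjusted p = 0.0358, adjusted p = 1). Slc40a1, the iron exporter ferroportin, read 200.9, 183.1, 235.1 and 155.2 CPM in the young and 374.0, 263.7, 354.2 and 250.7 CPM in the aged libraries, without overlap (0.68 ± 0.18, unadjusted p = 0.00524, adjusted p = 1). Slc40a1 is also abundant in macrophages, whose markers were higher in aged libraries as given below.

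Ets1, the transcription factor of the title, ranged from 841.5 to 1407 CPM in young and from 866.5 to 1368 CPM in aged libraries, with a log2 fold change of -0.15 ± 0.21. For Mapk14 (p38 alpha) it was -0.06 ± 0.26, for Nfe2l2 (NRF2) 0.06 ± 0.22 and for Hmox1 (heme oxygenase 1) 0.12 ± 0.15. Each of these 4 overlapped widely between the ages, and the last 3 changed sign when single libraries were left out. Of 15 genes of BMP and iron handling tested, 8 were higher and 7 lower (median 0.01). Among 14 NRF2 target genes 9 were higher and 5 lower (median 0.18).

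The LSEC programme as a whole showed little difference. Of 24 identity genes tested 13 were higher and 11 lower, and the median was 0.03. No identity gene was without overlap, beside 1.27% of all targets wholly higher and 0.694% wholly lower. Fcgr2b, an Fc receptor that clears immune complexes, had the smallest p among the identity genes (20.1 to 32.6 CPM in young, 30.7 to 56.6 in aged; log2 fold change 0.83 ± 0.23, unadjusted p = 0.00595). Clec4g, a lectin confined largely to sinusoidal endothelium in liver, ranged from 5728 to 11630 CPM in young and from 8059 to 11420 CPM in aged libraries. In the VEGF and angiopoietin list 9 genes were higher and 9 lower of 18, with 2 wholly higher and 1 wholly lower, beside 1.27 and 0.694% of all targets. Ccbe1, which helps activate the lymphatic growth factor VEGFC, read 1.14, 1.44, 2.81 and 2.73 CPM in the young and 9.10, 3.29, 11.1 and 10.6 CPM in the aged libraries (2.07 ± 0.53). Vegfb ranged from 15.2 to 22.0 CPM in young and from 27.9 to 32.6 CPM in aged libraries (0.72 ± 0.19). Vegfc itself ranged from 7.18 to 9.32 CPM in young and from 3.96 to 6.69 CPM in aged libraries (-0.60 ± 0.34), and all 3 had an adjusted p of 1. Cdkn1a, the cell cycle inhibitor p21, did not overlap (84.0 to 194.8 CPM in young, 60.9 to 80.3 in aged; -0.88 ± 0.27), and the 19 genes of cell cycle arrest and senescence had a median of -0.003.

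Immediate early and heat shock genes, which respond within minutes to handling and stress, were lower in aged libraries for 17 of 19 members, with a median of -0.89. Summed over the list they reached 23970 CPM in young 2.3 and 23330 in young 2.4, against 10030 in aged 2.3 and 9774 in aged 2.4. In replicates 1 and 2 the ages were alike: 8877 and 3584 CPM in young, 8359 and 3593 CPM in aged libraries. The median difference was accordingly 0.00 within replicates 1 and 2 and -1.12 within replicates 3 and 4, and -0.47 without young 2.3. Dnajb1, a heat shock co-chaperone, had the smallest p (80.8 to 243.1 CPM in young, 69.6 to 107.9 in aged; -0.93 ± 0.32). Fos, an immediate early transcription factor, ranged from 343.2 to 3923 CPM in young and from 293.4 to 1551 CPM in aged libraries.

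Proliferation genes were lower for 21 of 22 members (median -0.48), with young 2.4 the highest library. Their sum was 1378 CPM in young 2.4, 841.2 in aged 2.4, and 285.9 to 499.9 CPM in the other 6 libraries. Without young 2.4 the median was 0.17, and without aged 2.4 it was -1.23. Cdk1, the kinase that drives mitosis, ranged from 16.7 to 122.1 CPM in young and from 24.2 to 29.6 CPM in aged libraries.

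Markers of other cell types were present and differed between libraries. Summed hepatocyte markers read 563.9 to 2258 CPM in the young and 1146 to 1875 CPM in the aged libraries. In sorted bulk cells, more cells of a type and more RNA per cell cannot be told apart. Summed leukocyte markers (Kupffer, B, T and NK, monocyte and neutrophil lists) read 1145, 1294, 851 and 411.4 CPM in the young and 1464, 2658, 2358 and 404.2 CPM in the aged libraries. Replicate 4 of both ages was lowest, and aged 2.2 and 2.3 were highest. Ptprc (CD45) followed this sum only in part. It read 28.1, 38.8, 5.01 and 1.29 CPM in the young and 42.1, 74.8, 16.4 and 3.58 CPM in the aged libraries. Aged 2.3 thus had a higher sum than young 2.1 but less Ptprc. The sum also holds Xbp1 and Sdc1, which are members of the stress response and glycocalyx lists too. All 11 Kupffer cell and macrophage genes tested were higher in aged libraries, with a median log2 fold change of 1.52. Of them 2 lay wholly higher, beside 1.27% of all targets. Clec4f, a lectin of Kupffer cells, ranged from 1.15 to 6.72 CPM in young and from 5.67 to 36.2 CPM in aged libraries (2.01 ± 0.69). Folr2, a folate receptor of resident macrophages, ranged from 0.431 to 2.73 CPM in young and from 4.92 to 9.80 CPM in aged libraries (2.13 ± 0.57). With the leukocyte sum as a term the Kupffer median was 0.62, and it was 0.84 without aged 2.2. The sum includes the Kupffer genes themselves, so a fall under that term was partly built in.

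Of 15 MHC class II genes tested, 14 were higher, with a median of 1.23 that was 0.27 with the leukocyte term, 0.76 without aged 2.2 and 1.96 without young 2.1. Cd74, the invariant chain of MHC class II, read 552.1, 248.7, 95.3 and 56.3 CPM in the young and 1035, 1353, 195.9 and 29.7 CPM in the aged libraries. Replicates 1 and 2 exceeded replicates 3 and 4 at both ages, and the ages overlapped; its log2 fold change of 1.45 was -0.07 with the leukocyte term. Cd40, a co-stimulatory receptor, was the 1 lower member (9.07 to 11.9 CPM in young, 5.76 to 9.04 in aged). LSECs present antigen themselves, and the part of leukocytes in these values was not tested further.

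Other immune lists varied as widely. Monocyte and neutrophil genes were higher for all 9 tested (median 1.36, -0.18 with the leukocyte term), and S100a9, a neutrophil calcium-binding protein, reached 776.9 CPM in aged 2.3 but 2.07 CPM in aged 2.4. B and plasma cell genes had a median of 1.93 over 12 members, 0.21 with the leukocyte term, 0.91 without aged 2.2 and 2.90 without young 2.1. It was 2.18 within replicates 1 and 2 and 0.22 within replicates 3 and 4. Of 9 T and NK cell genes 3 were higher and 6 lower. The leukocyte sum contains the genes of these lists, so each median under that term was adjusted for its own members. Such medians cannot show whether a list differed with age apart from leukocyte content. None of these lists held a gene past the adjusted threshold in the 8-library fit.

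Stellate cell and fibroblast genes were higher for 10 of 13 members, with a median of 0.90 that was 0.39 without aged 2.3 and 1.66 without young 2.3. Their summed levels were 359.1 to 705.2 CPM in young and 525.9 to 1071 CPM in aged libraries. Pdgfrb, a receptor of pericytes and stellate cells, did not overlap at low levels (0.420 to 2.04 CPM in young, 2.51 to 7.08 in aged; 1.46 ± 0.59). Dcn, decorin, read 26.7 to 163.0 CPM in young and 80.1 to 294.9 CPM in aged libraries. Cholangiocyte genes were higher for all 6 tested, with a median of 1.37 that was 0.46 without aged 2.2: Spp1, osteopontin, read 730.4 CPM there and 30.0 CPM in aged 2.1. Hepatocyte genes had a median of -0.12 over 18 members, and Alb, albumin, overlapped between the ages (321.4 to 1417 CPM in young, 655.1 to 1206 in aged). With the leukocyte term the log2 fold change was 3.25 for Col4a4, 2.67 for Col4a3, 1.85 for Dkk3 and 0.59 for Slc40a1 (adjusted p = 0.617 for the first 3 and 1 for Slc40a1). The part of stellate cells, cholangiocytes and hepatocytes in these differences was not tested.

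Several other lists had a median near 0. Of 14 genes of continuous capillary endothelium tested, 2 were higher and 12 lower (median -0.12). Of 16 coagulation and fibrinolysis genes tested, 4 were higher and 12 lower (median -0.09). The median log2 fold change was -0.06 over 18 pan-endothelial genes, 0.06 over 15 MHC class I genes, 0.01 over 28 respiratory chain genes, 0.09 over 21 genes of the unfolded protein and integrated stress response, 0.03 over 13 Notch genes and -0.13 over 16 genes of caveolae and glycocalyx. Circadian clock genes were higher for 15 of 17 members (median 0.26), a value that was -0.04 without young 2.2 and aged 2.4.

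**Figure D4:**
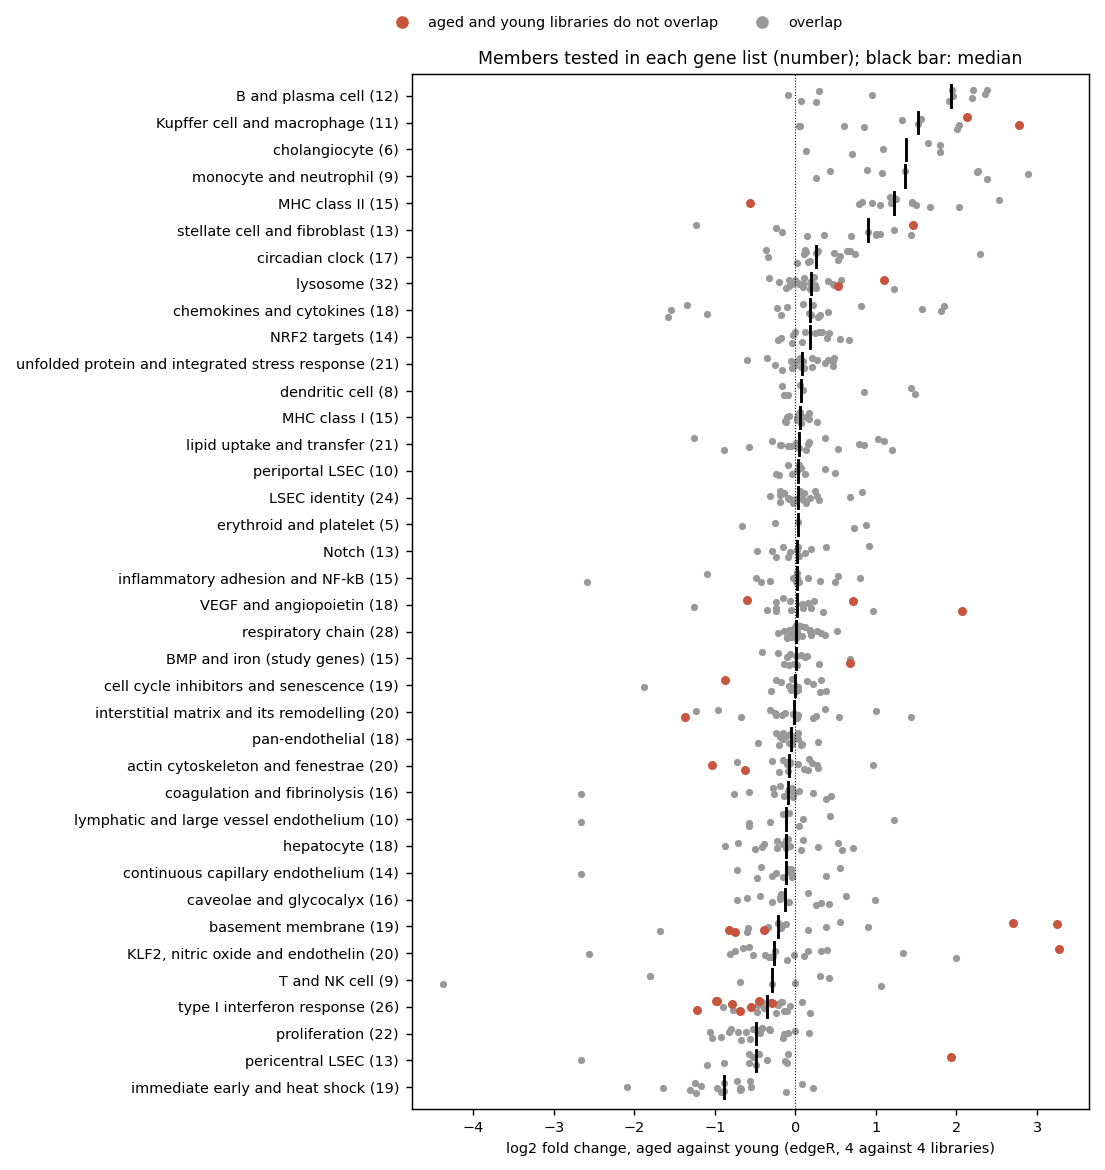
Log2 fold change (aged over young, x axis) of every tested member of each gene list, 1 list per line with the number tested; black bars are medians, and red points are genes whose aged and young libraries do not overlap. Interferon genes hold 8 red points below 0, basement membrane genes 2 above and 3 below 0, and the lists with the highest medians are markers of other cell types and MHC class II.

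The first experiment, with 3 aged and 3 young libraries of the same strain, sex and sort, shares no library with the second and gives the same genes a separate measurement. No gene was called there either (edgeR, 14485 targets, smallest adjusted p = 0.124, 1274 targets at an unadjusted p under 0.05). Over all 13489 targets tested in both, 52.1% had the same direction. Of the 10 higher genes 9 were tested there, 8 had the same direction, and 6 did not overlap between the ages, beside 7.97% of targets wholly higher in that experiment. All 10 lower genes had the same direction there, and 9 did not overlap, beside 10% of targets wholly lower. With 3 libraries per group, non-overlap is a weaker condition than with 4.

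Col4a4 ranged from 3.43 to 3.71 CPM in young and from 17.3 to 18.6 CPM in aged libraries of the first experiment, a log2 fold change of 2.32 ± 0.25 beside 3.25 ± 0.40 in the second. Col4a3 had 1.56 there and overlapped (3.43 to 6.96 CPM in young, 5.29 to 21.5 in aged). Ptgis ranged from 1.45 to 2.64 CPM in young and from 7.62 to 9.69 CPM in aged libraries (2.16), Ccbe1 from 2.08 to 2.76 and from 6.96 to 14.7 CPM (2.14), and Dkk3 had 1.64 ± 0.34. Among lower genes Plcb1 had -1.70 ± 0.21 and Stc1 -2.56 ± 0.69. Cdh19 and Steap2 had too few reads there to be tested.

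No gene passed an adjusted p under 0.05 in edgeR's test of the difference between experiments (15184 targets), and 371 had an unadjusted p under 0.05 where 759 would be expected by chance. limma-voom called 0 and DESeq2 called 1, Themis, a T cell gene. Gna14 had a log2 fold change of 0.28 ± 0.44 in the first experiment, Clec1b 0.17 ± 0.17 and Map4 -0.07 ± 0.23, with unadjusted p of 0.0203, 0.0486 and 0.0287 for the difference between experiments. For Col4a4 that p was 0.0412, and its direction was the same in both. The interferon list had a median of -0.29 in the first experiment, with 18 of 26 members lower, and the basement membrane list -0.12. The pericentral list had 0.12, lysosomal genes 0.02 and the stellate list -0.86, while Bmp6 had 0.71 in the first experiment beside 0.68 in the second.

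**Figure D5:**
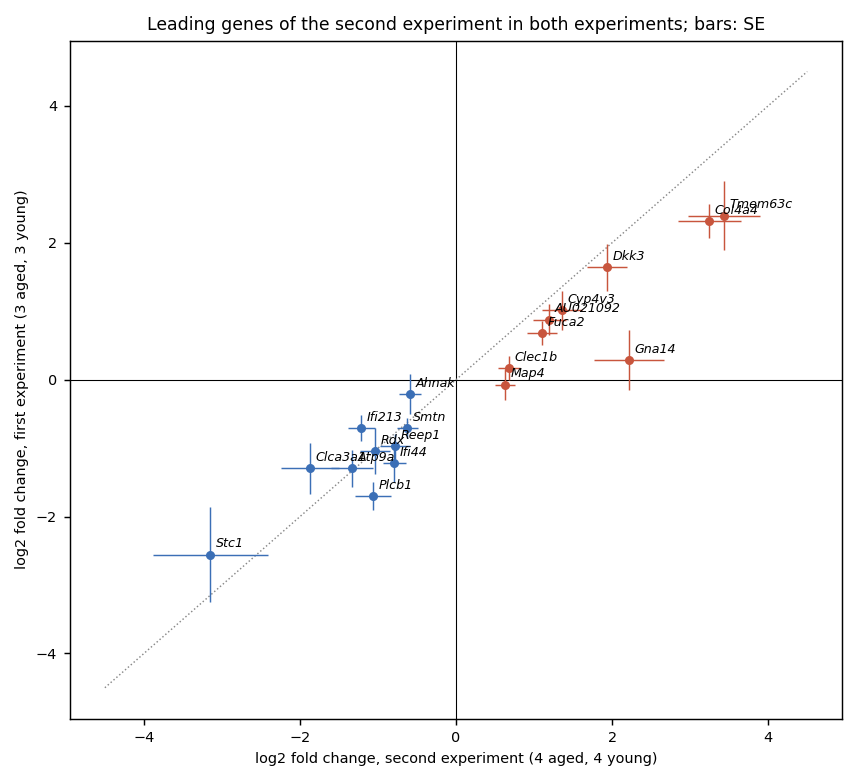
Log2 fold change of the leading genes in the second (x axis, 4 aged and 4 young libraries) and the first experiment (y axis, 3 and 3), with SE bars; red genes were higher and blue genes lower in aged libraries of the second experiment, and the dotted line marks equal values. Map4 is the 1 gene of 19 on the other side of 0 in the first experiment, at -0.07, and Clec1b, Ahnak and Gna14 come next nearest to 0, at 0.17, -0.21 and 0.28.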

How the data were processed

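The deposited values were raw read counts per RefSeq transcript target, in a file for each library. The submitters' processing notes name HTSeq (0.6.0) and DESeq2 (1.18.1). Aligner, build and strand setting: not given in the sources used here. The counter's 5 bookkeeping entries (1.24 to 2.31% of reads in the 8 libraries) were left out. Symbols came from RefSeq (GRCm38.p6) for 18128 of 23930 targets by versioned accession, for 4324 by accession alone and for 110 by GENCODE; the 1368 others held 0.231 to 1.08% of gene reads and stayed in. The counts hold no molecular identifiers, so depth speaks to counting error only.

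The main test was edgeR 4.0.16 (R 4.3.3): filterByExpr, trimmed mean of M values (TMM) scaling and the quasi-likelihood test of age over 8 libraries, with Benjamini-Hochberg adjustment over all targets and calls at 0.05. Gene CPM are TMM-scaled, and sums over lists and the sort genes are scaled by gene reads only. Each SE is the log2 fold change divided by the root of its F value. DESeq2 1.42.0, limma 3.58.1 (voom), other scalings and filters, covariates and left-out libraries were alternatives. The steps were checked on simulated counts, drawn independently with a common dispersion. Those counts held no receptor-read axis and no replicate split, so the check does not cover these features of the libraries. Named genes were the 10 per direction with the smallest p without overlap and with a mean of 5 CPM or more, the 7 called with the receptor term, genes of the series title, and up to 3 members with the smallest p per list described. The other genes named (Col4a1, Sparc, Lama4, the interferon genes beyond the first 3, Nos3, Clec4g, Cdkn1a, Fos, Cd74, Dcn, Alb and Themis) were chosen after their values were seen. The members and lists were chosen with earlier results of these data known.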

Additional observations from a re-analysis of the deposited data

Results flagged for a closer look

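In 19 of 206 groups of 4 libraries examined, 1 library stood far from the other 3, by Dixon's 95% critical value for the gap to the nearest. Chance alone gives about 1 in 20 such groups, and groups that share a library are not independent. Aged 2.3 held 13977361 gene reads against 8933204 to 9676230 in the other aged libraries. It was also apart for Tmem63c (19.5 CPM against 8.28 to 9.45), Reep1 (62.2 against 51.6 to 52.8), Smtn (125.2 against 96.1 to 101.0), Reln (80.9 against 14.9 to 20.9), Dcn (294.9 against 80.1 to 108.1) and the summed stellate cell and fibroblast list (1071 against 525.9 to 561.5 CPM).

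Aged 2.4, the aged library with most receptor reads, was apart for Cdk1 (29.6 against 24.2 to 24.7 CPM), for the summed proliferation list (841.2 against 319.9 to 387.5) and, at the low end, for the summed lysosome list (11370 against 13990 to 14520). Young 2.4 was apart for Edn1 (40.0 against 2.43 to 3.59 CPM) and Hspa1a (1185 against 148.9 to 291.4).

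Young 2.2, the young library with most receptor reads, was apart for Spp1 (190.1 against 45.0 to 58.4 CPM), Sox9 (5.03 against 0.930 to 1.58), the summed cholangiocyte list (241 against 49.7 to 77.6) and, at the low end, Col4a2 (325.8 against 414.9 to 427.7). Young 2.3 was apart for Lama4 (305.7 against 235.4 to 236.1 CPM). Young 2.1 was apart for Cd79b (20.7 against 0.525 to 3.59 CPM) and Col4a3 (1.93 against 1.02 to 1.16). The causes were not tested.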

How the results depend on the processing

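edgeR called 0 genes in each direction in the 8 libraries and under most alternatives, and the exceptions were DESeq2 (20 higher, 15 lower), the receptor read term (6 and 1) and all 14 libraries in 1 fit (2 and 1). Leaving out each library in turn gave 0 to 0 genes in either direction, although targets at an unadjusted p under 0.05 went from 345 to 1470 without aged 2.4 and to 527 without young 2.2. With the replicate number as a block, 0 genes were called (485 targets at an unadjusted p under 0.05). Same-numbered libraries correlated by -0.04, 0.23, 0.78 and -0.33 over all targets, after each age's mean was removed. The main axis, which followed the receptor reads, weighs on these values, so they cannot decide whether same-numbered libraries were paired. Genes with a different age effect in the 2 experiments numbered 0 by edgeR and 1 by DESeq2.

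Of 83 named genes 75 kept their direction under all 22 alternatives that gave them a value. The other 8 reversed as follows on the log2 scale. Without young 2.2 and aged 2.4 the values were 0.17 for Mapk14, -0.097 for Nfe2l2 and -0.041 for Clec4g. With the leukocyte term they were 0.043 for Top2a, -0.77 for S100a9 and -0.073 for Cd74, and S100a9 is itself part of that sum. Over single libraries left out, Mapk14 ranged from -0.20 to 0.16, Nfe2l2 from -0.10 to 0.20, Hmox1 from -0.004 to 0.23, Top2a from -1.46 to 0.054, Clec4g from -0.023 to 0.31 and Alb from -0.21 to 0.36. The cause was not tested. Counts of targets without overlap stayed within 1.5 times under RLE scaling and without TMM. The term for replicates 1 and 2 against 3 and 4, added after seeing the data, gave 0 calls. With 4 libraries per age, small differences may go undetected, and large ones may too. Col4a4, 9.49-fold higher without overlap, had an adjusted p of 0.237 in the main edgeR fit.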
